A study of Mus musculus with 8 samples.

Results

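The BAFF and APRIL system of the mouse spleen was followed through 4 of the 32285 genes in the count matrices. These are the receptor genes Tnfrsf13c (BAFF-R) and Tnfrsf13b (TACI) and the ligand genes Tnfsf13b (BAFF) and Tnfsf13 (APRIL). They were taken by symbol, each symbol matched 1 gene, and all 4 were read in every library. The values are counts of unique molecular identifiers (UMIs) for each gene in each cell of 8 single-cell libraries, 2 in each of 4 groups. The cKO mice were Eif3e fl/fl, Cγ1Cre and Rosa26-YFP LSL, and the controls carried Cγ1Cre and Rosa26-YFP LSL without the floxed Eif3e alleles, so Cre and the reporter were common to both genotypes. All mice were C57BL/6J animals of 2 months. A library held the pooled cells of 2 to 3 mice, either as total splenocytes or as sorted YFP+ cells. Cγ1Cre is induced with transcription of the Ig γ1 constant region in activated B cells, and YFP marks cells in which Cre has acted. Each group had 1 library in each of 2 batches. The sources do not state whether the total and YFP+ libraries of a batch and genotype came from the same mice, and p-values measure the spread between 2 pools a group.

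BAFF and APRIL are soluble members of the TNF family made mainly by myeloid, dendritic and stromal cells. BAFF-R binds BAFF alone, signals through TRAF3 and the alternative NF-kB pathway, and keeps mature follicular and marginal zone B cells alive. TACI binds both ligands, is strong on marginal zone and B1 cells, and takes part in antibody responses that need no T cell help. Another receptor, BCMA (Tnfrsf17), binds both ligands on plasma cells.

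In the GENCODE vM21 annotation of GRCm38, Tnfrsf13c (ENSMUSG00000068105) lies on the minus strand of chromosome 15 from 82221743 to 82224369, and Tnfrsf13b (ENSMUSG00000010142) on the plus strand of chromosome 11 from 61126755 to 61149372. Tnfsf13b (ENSMUSG00000031497) lies on the plus strand of chromosome 8 from 10006467 to 10039072. Tnfsf13 (ENSMUSG00000089669) lies on the minus strand of chromosome 11 from 69682846 to 69685784, inside the span of the antisense gene Tnfsf13os and next to Tnfsf12. The sources do not state how strand was used in counting, so reads of Tnfsf13 and Tnfsf13os may not be told apart. The 250 bases before the RefSeq start of each receptor gene are shown. They were chosen because both receptors were lower in 1 cluster of cKO YFP+ cells, as described further on. The RefSeq start of Tnfrsf13c lies a few bases outside the GENCODE span given above. The sequences come from RefSeq (GRCm38.p6) and read 5′ to 3′ along the gene's strand, with E-boxes, the CANNTG motif of basic helix-loop-helix factors, in capitals.
Tnfrsf13b, chr11:61126505-61126754, plus strand: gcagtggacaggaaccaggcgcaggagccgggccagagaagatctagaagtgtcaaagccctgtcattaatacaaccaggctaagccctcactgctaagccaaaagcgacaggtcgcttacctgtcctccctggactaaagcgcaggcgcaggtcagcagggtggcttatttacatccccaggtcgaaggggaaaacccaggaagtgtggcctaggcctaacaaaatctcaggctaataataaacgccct
Tnfrsf13c, chr15:82224381-82224630, minus strand: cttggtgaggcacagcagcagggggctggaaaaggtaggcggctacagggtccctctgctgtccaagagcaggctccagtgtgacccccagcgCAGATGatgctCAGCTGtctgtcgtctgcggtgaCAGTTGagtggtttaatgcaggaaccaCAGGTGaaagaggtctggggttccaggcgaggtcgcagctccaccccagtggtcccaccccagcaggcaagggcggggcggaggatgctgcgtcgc
The Tnfrsf13c window held 4 E-boxes and the Tnfrsf13b window held 0, while 66.2% of 32851 such windows held at least 1. Each window held 3 copies of GGAA, the core of ETS factor sites, counted on both strands, and 93.4% of windows held at least 1. Neither held a match to the general NF-kB site on either strand, which 7.25% of windows held. These are matches of letters only.

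After filtering, 83704 of 83967 barcodes remained. The libraries held 71894780 to 105224903 UMIs, with a median of 5250 to 6810.5 UMIs per cell, and the same barcode sequence occurred in 2 libraries 51 to 102 times per pair of libraries (0.548% to 0.971%). Cell classes were rebuilt from markers and are called "like" their name. The targeted gene Eif3e stood at 240.5 and 288 CPM (UMIs of a gene scaled to a common total of UMIs for each library or class) over all cells of cKO total libraries and at 235 and 279.95 CPM in cKO YFP+ libraries, against 244 and 289 CPM and 227 and 267 CPM in the matching control libraries. It was not lower in the cKO YFP+ libraries as a whole. In pre-GC activated B-like cells, the activated cells before the germinal centre stage, it was 163 and 168 CPM in cKO YFP+ against 278 and 298 CPM in control YFP+ libraries. In the other B classes the cKO YFP+ libraries did not both lie below control: Eif3e read 277 and 363 CPM in cKO YFP+ against 206 and 263 CPM in control YFP+ libraries in follicular B-like cells, 304 and 395 against 253 and 292 CPM in B1-like cells, and 271 and 303 against 265 and 297 CPM in germinal centre B-like cells, and the ranges of marginal zone, interferon-response and plasma cell-like cells overlapped between the genotypes. In follicular and B1-like cells the cKO libraries were the higher ones. The 3′ tags of this kit can lie outside a deleted part, so the check is partial.

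Across the cell classes of control total spleen, Tnfrsf13c was a B cell transcript. Its level, in CPM of all UMIs of a class, was highest in transitional B-like cells, at 286 and 362 CPM in the 2 libraries. Germinal centre B-like cells (247 and 262 CPM), follicular B-like cells (214 and 247 CPM), interferon-response B-like cells (170 and 229 CPM) and pre-GC activated B-like cells (177 and 207 CPM) formed a second tier, in which each neighbour overlapped the next. B1-like cells (128 and 148 CPM) and marginal zone B-like cells (120 and 138 CPM) overlapped one another below that tier. Plasma cell-like cells, which have left the BAFF-R dependent stage, held the lowest level of the B lineage at 58.3 and 50.5 CPM. Outside the lineage, plasmacytoid dendritic (pDC)-like cells read 33.6 and 23.3 CPM, and the named NK, T, monocyte, neutrophil and other dendritic classes stayed at 12.7 CPM or below in each library, with cDC1-like cells (26 cells in 1 library) at the upper end. The pDC-like cells also held the B cell transcripts Cd79a at 105.5 to 307 CPM and Ms4a1 at 94.6 to 159 CPM in control total libraries, and the part of B cell RNA in their Tnfrsf13c reading was not tested.

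Tnfrsf13b followed another order. It was highest in pDC-like (205 and 212 CPM), B1-like (181 and 232 CPM) and transitional B-like cells (183 and 217 CPM), which overlapped one another. Marginal zone B-like cells followed at 153 and 181 CPM, then follicular B-like cells at 136 and 161 CPM and plasma cell-like cells at 136 and 148 CPM, again with overlap between neighbours. Germinal centre B-like cells stood apart at the low end of the B lineage, with 71.3 and 65.6 CPM. The order of germinal centre B-like and B1-like cells was therefore opposite for the 2 receptors. Outside the B lineage Tnfrsf13b was read in cDC2-like cells, a conventional dendritic class (59.5 and 54.1 CPM), Treg-like cells (43.1 and 48.9 CPM) and monocyte-like cells (46.2 and 42.1 CPM). It was 5.68 and 8.22 CPM in NK-like cells.

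**Figure D1:**
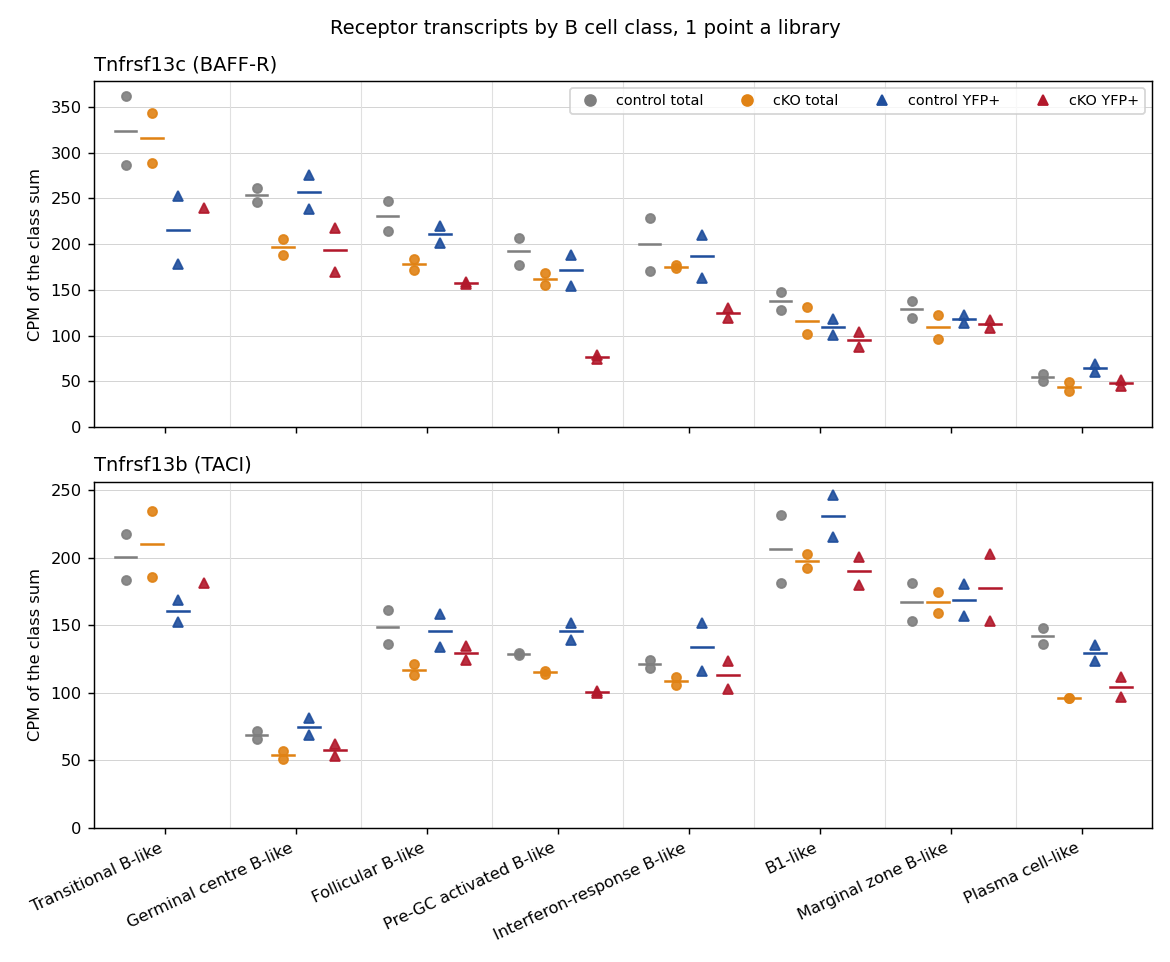
Level of Tnfrsf13c (top) and Tnfrsf13b (bottom) in CPM of the class sum for 8 B-lineage classes, 1 point for each library with at least 20 cells and a bar at the group mean. In pre-GC activated B-like cells the cKO YFP+ libraries lie lowest for both receptors, at 78.3 and 74.3 CPM for Tnfrsf13c, and germinal centre B-like cells are high for Tnfrsf13c and low for Tnfrsf13b.

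The first comparison asked how the receptors differed by genotype in the sorted cells in which Cre had acted. Tnfrsf13c fell in cKO YFP+ pre-GC activated B-like cells. It read 78.3 and 74.3 CPM in the cKO YFP+ libraries (1960 and 1984 cells) and 155 and 188 CPM in the control YFP+ libraries (356 and 496 cells). The groups did not overlap, and both cKO YFP+ libraries also lay below the cKO total libraries of the same class (155 and 169 CPM). The log2 fold change of cKO over control was -1.12 ± 0.22 (SE, 2 libraries a group, adjusted p = 0.023, edgeR quasi-likelihood test over all genes of the class), which is 0.459 of the control level. It was 1 call among 16 tests of the 2 receptors in YFP+ cells, over all B-like cells and 7 B classes, in a class where 8.71% of all genes were called. With the batch number as a block it was -1.11 ± 0.15 (adjusted p = 1.2e-12), and 3 of the 16 tests were called, all lower, in classes where the block raised the share of genes called to 29.6% (pre-GC activated B-like) and 17.3% (all B-like cells). Without the first or the second cKO YFP+ library the adjusted p was 0.061 or 0.12, with fold changes of -1.12 in both. With classes defined in control libraries and given to cKO cells by their nearest control cells, the fold change was -0.58 in pre-GC activated B-like cells (adjusted p = 0.69) and -1.53 in germinal centre B-like cells, where it was then called (adjusted p = 0.0025). The pre-GC class then held 859 and 1042 cKO YFP+ cells. A germinal centre cluster led by Hist1h1b alone held 498 and 405, against 357 and 210 in the whole germinal centre class as rebuilt from all libraries. The cells under these 2 names thus changed with the clustering.

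The share of cells with at least 1 Tnfrsf13c UMI moved with the level. It was 59.3% and 62.8% of pre-GC activated B-like cells in cKO YFP+ libraries (95% exact binomial intervals 57.1% to 61.5% and 60.6% to 64.9%, for counting error only) and 73.3% and 70.0% in control YFP+ libraries (68.4% to 77.8% and 65.7% to 74.0%). The median depth of these cells was 11078 and 14435.5 UMIs in cKO and 11151 and 10898.5 UMIs in control. After thinning each cell to 2000 UMIs, which left out 10 to 13 cKO cells and 2 to 11 control cells of a library, the shares were 17.3% and 17.2% in cKO and 31.1% and 32.2% in control. As a background, CD8 T-like cells of total libraries, which should lack BAFF-R, had shares of 1.90% to 3.22% before and 0.275% to 1.19% after thinning, at medians of 6804 to 8905 UMIs. The share in pre-GC activated B-like cells was thus above background in both genotypes and lower in both cKO libraries at equal depth.

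The pre-GC activated B-like class was made of 2 clusters, one led by Mreg, Ccnd2 and Bcl2a1d and the other by Fabp5, Tmem176b and the division gene Top2a. They were looked at one by one after the class result was known. In the Fabp5-led cluster Tnfrsf13c read 62.1 and 52.0 CPM in cKO YFP+ libraries (748 and 894 cells) and 151 and 191 CPM in control YFP+ libraries (157 and 268 cells). Its log2 fold change there was -1.56 ± 0.21 (adjusted p = 0.0025, edgeR), in a cluster where 22.7% of all genes were called. At 2000 UMIs a cell, 12.6% and 10.9% of its cKO YFP+ cells and 29.9% and 33.1% of its control YFP+ cells held a Tnfrsf13c UMI. In the Mreg-led cluster it read 113 and 130 CPM in cKO YFP+ against 163 and 177 CPM in control YFP+ libraries, without overlap, and the fold change of -0.36 ± 0.29 was not called (adjusted p = 0.67, or 0.074 with the block), where 1.93% of all genes were. The Fabp5-led cluster made up 38.2% to 45.1% of the class in cKO YFP+ and 44.1% to 54.0% in control YFP+ libraries. These ranges overlapped, and the part of the cluster makeup in the class value was not tested. Eif3e was lower in the same cluster, at 124 and 125 CPM in cKO YFP+ against 269 and 300 CPM in control YFP+ libraries (-1.17 ± 0.19, adjusted p = 0.0050).

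Tnfrsf13b in the same cells also read differently in the 2 clusters. Over the whole class it read 99.4 and 101 CPM in cKO YFP+ and 139 and 152 CPM in control YFP+ libraries, without overlap. The log2 fold change of -0.49 ± 0.21 was not called (adjusted p = 0.20), and was called with the block (-0.48 ± 0.15, adjusted p = 0.0047). In the Fabp5-led cluster it read 84.0 and 83.5 CPM in cKO YFP+ against 144 and 159 CPM in control YFP+ libraries and fell (-0.83 ± 0.18, adjusted p = 0.015). In the Mreg-led cluster it read 132 and 145 CPM in cKO YFP+ against 126 and 123 CPM in control YFP+ libraries (0.28 ± 0.28, adjusted p = 0.76), so the cKO libraries were the higher ones there. Whether the clusters differed from one another in the genotype effect was not tested.

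**Figure D2:**
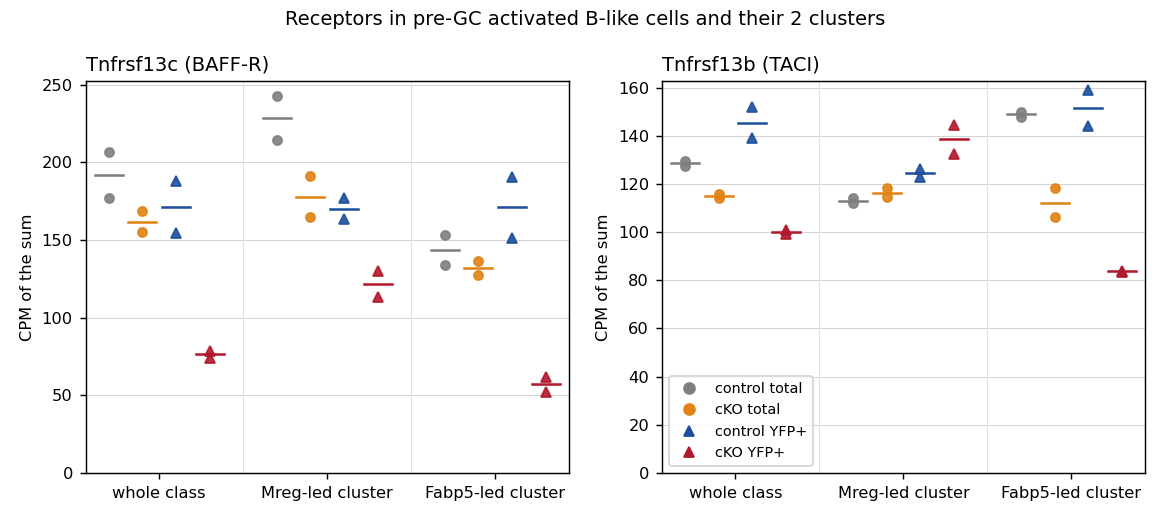
Receptor levels in CPM in the pre-GC activated B-like class and in each of its 2 clusters, 1 point for each library and a bar at the group mean. In the Fabp5-led cluster the cKO YFP+ libraries lie at 62.1 and 52.0 CPM for Tnfrsf13c and at 84.0 and 83.5 CPM for Tnfrsf13b, below every other library, while in the Mreg-led cluster Tnfrsf13b is not lower in cKO.

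In the other B classes of YFP+ cells, as rebuilt from all libraries, neither receptor passed the test. Few genes of any kind did so in follicular B-like (0.346%) and germinal centre B-like cells (1.14%). The fold changes of Tnfrsf13c ran from -1.12 to -0.04 over the 8 sets of cells tested, all below 0, and those of Tnfrsf13b from -0.49 to 0.10, with 7 of 8 below 0. These classes share libraries and are not independent of one another. In germinal centre B-like cells Tnfrsf13c read 169 and 217 CPM in cKO YFP+ against 238 and 276 CPM in control YFP+ libraries (-0.38 ± 0.25, adjusted p = 0.861), and Tnfrsf13b 53.1 and 62.3 CPM against 68.3 and 80.9 CPM (-0.35 ± 0.23, adjusted p = 0.865). In follicular B-like cells Tnfrsf13c read 156 and 159 CPM against 202 and 220 CPM (-0.29 ± 0.26, adjusted p = 0.90, 95% interval -0.81 to 0.22). The groups did not overlap in these 3 pairs, but the test called none of them. In marginal zone B-like cells the libraries overlapped for both receptors.

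The follicular B-like class was filled from different clusters in the 2 genotypes, although the 4 members and the 28 genes of a pathway list were kept out of the clustering. A Maml3-led cluster held 91.8% to 93.6% of it in control total and 70.9% to 85.2% in control YFP+ libraries, but 6.85% to 7.63% in cKO total and 0.715% to 1.498% in cKO YFP+ libraries. A St7-led cluster held 44.7% to 52.7% in cKO total and 52.7% to 71.0% in cKO YFP+ libraries and at most 0.136% in any control library, and a Pde2a-led cluster 37.5% to 42.7% and 19.9% to 31.2% in the same cKO libraries. Their part in the follicular values was not tested.

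Summed over all B-like cells, Tnfrsf13c read 115 and 120 CPM in cKO YFP+ libraries and 182 and 230 CPM in control YFP+ libraries, without overlap. The log2 fold change of -0.78 ± 0.31 was not called (adjusted p = 0.24), in a sum where 6.17% of all genes were called. With the block it was -0.75 ± 0.18 and was called (adjusted p = 0.024). Without the block and with 1 library left out, which leaves 1 library in a group, it ran from -1.04 to -0.45. Tnfrsf13b over the same cells read 115 and 124 CPM against 126 and 126 CPM (-0.03 ± 0.28, 95% interval -0.57 to 0.51). The makeup of the sum differed between the genotypes: germinal centre B-like cells, which are high in Tnfrsf13c and low in Tnfrsf13b, were 18.1% to 29.2% of control YFP+ cells and 2.01% to 3.52% of cKO YFP+ cells, and pre-GC activated B-like cells were 3.84% to 4.26% and 19.0% to 19.3%. The part of that difference in makeup in the sums was not tested. These shares depend on the clustering. With classes defined in control libraries, pre-GC activated B-like cells numbered 859 and 1042 in cKO YFP+ libraries, against 1960 and 1984 here. Germinal centre B-like cells then came from clusters led by Rgs13, Hist1h1b and Cdc20. These held 326, 498 and 265 cells in the first and 265, 405 and 154 in the second cKO YFP+ library. The whole germinal centre class here held 357 and 210. The sum also held clusters without a class name: one whose best match was T-bet+ B cells (13.6% to 15.3% of control YFP+ cells, 0.593% to 0.868% of cKO YFP+ cells), one whose best match was follicular B cells (at most 0.0858% and 13.5% to 15.1%) and one whose best match was memory B cells (at most 0.345% and 4.13% to 6.30%). In total libraries these 3 were at most 0.679%, 0.0105% and 0.220% of control cells, and at most 0.482%, 1.65% and 6.20% of cKO cells.

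In B cells of total spleen no receptor passed the test, in 18 tests over all B-like cells and 8 B classes (edgeR; 0 of the 18 had an unadjusted p under the threshold of 0.05, and 0 were called by DESeq2). The share of all genes called ran low there too, at 0.102% over all B-like cells and 0.00926% to 1.62% in the 8 classes. Over all B-like cells Tnfrsf13c read 171 and 185 CPM in cKO total and 196 and 228 CPM in control total libraries (-0.19 ± 0.23, 95% interval -0.64 to 0.26). Tnfrsf13b read 126 and 126 CPM against 147 and 172 CPM (-0.29 ± 0.22, 95% interval -0.72 to 0.15). Both receptors lay lower in both cKO libraries, and neither passed the test. With the block 7 of 18 tests had an unadjusted p under 0.05, beside 4353 of 14656 genes over all B-like cells. Of the 18, 2 were called, both in follicular B-like cells, where the block called 18.1% of all genes. Without the block 0.103% of genes were called there. Tnfrsf13c read 172 and 184 CPM in cKO total against 214 and 247 CPM in control total libraries (-0.28 ± 0.23, or -0.27 ± 0.08 with an adjusted p of 0.020 in the blocked fit). Tnfrsf13b read 113 and 121 CPM against 136 and 161 CPM (-0.25 ± 0.23, or -0.24 ± 0.08 with an adjusted p of 0.036 in the blocked fit).

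**Figure D3:**
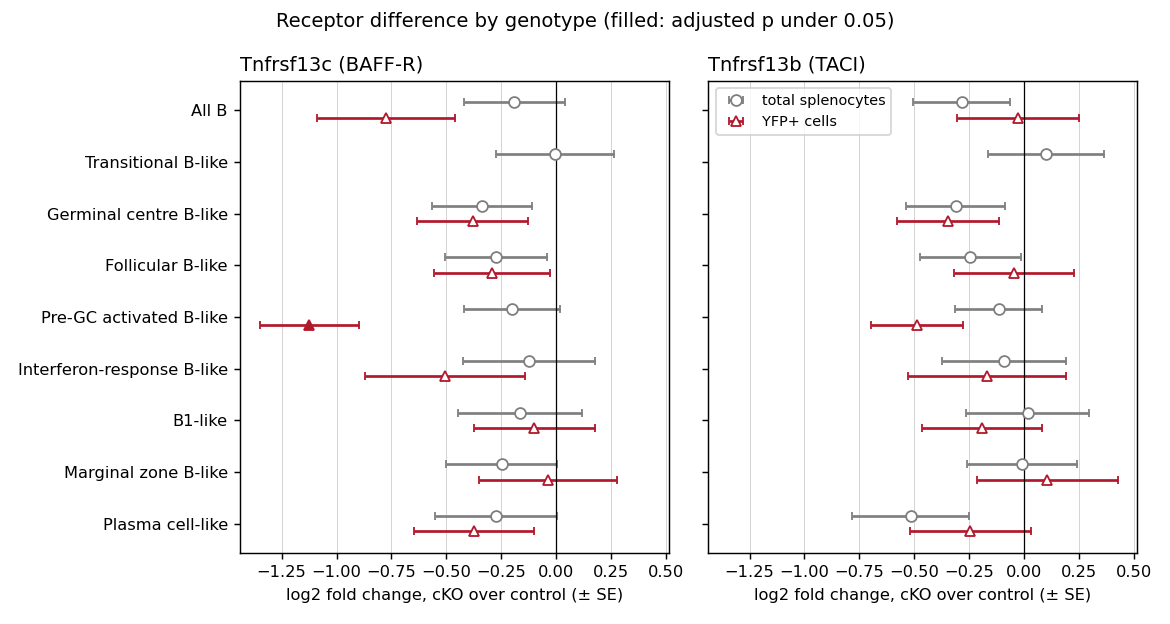
Log2 fold change of cKO over control for each receptor and B class, with its SE, in total splenocytes (circles) and YFP+ cells (triangles). Only Tnfrsf13c in YFP+ pre-GC activated B-like cells is filled (-1.12, adjusted p = 0.023).

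The genotype effect was then compared between the sorts in 1 model over all 8 libraries. For Tnfrsf13c in pre-GC activated B-like cells the effect in YFP+ cells was lower than that in total cells by a log2 difference of -0.92 ± 0.29, which was not called (adjusted p = 0.33, 95% interval -1.48 to -0.35) in a test that called 0.00868% of all genes. With batch and genotype as a block the difference was -0.91 ± 0.12 and was called (adjusted p = 5.6e-05), in a test that called 16.2% of all genes. In the Fabp5-led cluster the difference was -1.46 ± 0.28 (adjusted p = 0.068, with 0.228% of all genes called) and -1.45 ± 0.15 with the block (adjusted p = 1.5e-04, with 8.87%). There the total libraries read 136 and 127 CPM in cKO and 134 and 154 CPM in control, so the groups overlapped in range while the YFP+ groups did not. In the Mreg-led cluster the difference was -0.045 ± 0.34, or -0.049 ± 0.13 with the block, and was called in neither fit (0% of all genes were called without the block, 266 having an unadjusted p under 0.05, and 3.8% with it). With classes defined in control libraries the difference over the pre-GC activated B-like class was -0.34 (adjusted p = 0.9999). Over all B-like cells the difference for Tnfrsf13c was -0.60 ± 0.38 (adjusted p = 0.75, with 1.15% of all genes called), or -0.57 ± 0.12 with the block (adjusted p = 0.014, with 15.5%). Without the block it was -0.26 when the second control YFP+ library was left out, and -0.87 without the first. The part of the makeup of that sum in the difference was not tested. With classes defined in control libraries the difference for Tnfrsf13c was called in germinal centre B-like cells (-1.40 ± 0.26, adjusted p = 0.017). Of 16 tests of the receptors, 0 were called without the block (1 with an unadjusted p under 0.05, and 0 by DESeq2) and 2 with it.

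Between YFP+ and total cells of control mice neither receptor differed beyond the spread (edgeR, 0 of 18 tests called, 0 with an unadjusted p under 0.05, 0 by DESeq2, with 6.58% of all genes called over all B-like cells). In the other 8 sets of cells 0% to 0.169% of all genes were called, so few calls of any kind were made there. With the batch block 0 of 18 tests were called and 4 had an unadjusted p under 0.05, beside 7660 of 15097 genes over all B-like cells. Without the block, log2 differences of YFP+ over total ran from -0.52 to 0.24 for Tnfrsf13c and from -0.28 to 0.28 for Tnfrsf13b over the 9 sets of cells. The lowest value of each receptor was in transitional B-like cells, where the control YFP+ libraries held 174 and 37 cells.

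Among the ligands, APRIL was highest in monocyte-like cells of the named classes. Tnfsf13 read 71.9 and 130 CPM in monocyte-like cells of control total libraries (28 and 191 UMIs in 50 and 187 cells) and 84.5 and 84.7 CPM in those of cKO total libraries (23 and 38 UMIs in 38 and 54 cells). The cKO values lay between the control values. Over monocyte- and macrophage-like cells together it read 62.0 and 123 CPM in control and 62.1 and 93.6 CPM in cKO (-0.28 ± 0.42, 95% interval -1.11 to 0.54, not called in a test that called 0% of 7321 genes, of which 223 had an unadjusted p under 0.05). One cKO monocyte class held S100a8, a neutrophil transcript, at 1698 CPM and the other at 69.1 CPM, against at most 3.40 CPM in control, and its part in these values was not tested. Macrophage-like cells reached 20 cells in 1 of the total libraries, a cKO one, where they read 48.6 CPM (22 UMIs in 42 cells). NK-like cells read less in every total library, at 14.6 and 11.5 CPM in control and 22.2 and 18.5 CPM in cKO total libraries, without overlap (0.65 ± 0.43, 95% interval -0.19 to 1.49, not called). The few unnamed cells whose best match was stromal cells pooled a Pla2g2d-led and an Igfbp7-led cluster. In these cells Tnfsf13 read 25.9 and 34.2 CPM in control total libraries (5 UMIs in 21 cells each). It read 78.0 CPM in the cKO total library that held at least 20 such cells (20 UMIs in 29 cells). Of those 29 cells, 9 were in the Pla2g2d-led and 20 in the Igfbp7-led cluster. Conventional dendritic-like cells read 3.04 and 10.6 CPM in control and 2.67 and 11.6 CPM in cKO (0.03 ± 0.80), where the first library of each genotype was the low one. In B1-like, pre-GC activated B-like, germinal centre B-like cells and in all CD4 T-like cells of total libraries Tnfsf13 stayed at 0.262 CPM or below. The antisense Tnfsf13os read 18.4 to 24.5 CPM in the monocyte-like classes and the neighbour Tnfsf12, which encodes TWEAK, read 41.1 to 78.0 CPM.

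BAFF was read from few UMIs everywhere. Monocyte-like cells held Tnfsf13b at 10.3 and 7.48 CPM in control total libraries (4 and 11 UMIs) and at 7.35 and 2.23 CPM in cKO total libraries (2 UMIs and 1 UMI, where 3 UMIs would be 11.0 and 6.68 CPM). Neutrophil-like cells were sampled in 1 library of each genotype, with 18.2 CPM in control (10 UMIs in 100 cells) and 22.1 CPM in cKO (9 UMIs in 67 cells). In pDC-like cells 0 UMIs were read in all 4 total libraries, which allows a level of up to 4.59 to 6.17 CPM. Conventional dendritic-like cells gave 0 to 3 UMIs a library. These counts are too few for a comparison between genotypes in myeloid and dendritic cells, and among T, myeloid and dendritic classes Tnfsf13b passed the filter on low counts only in CD4 T-like cells and in the sum of T- and NK-like cells.

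**Figure D4:**
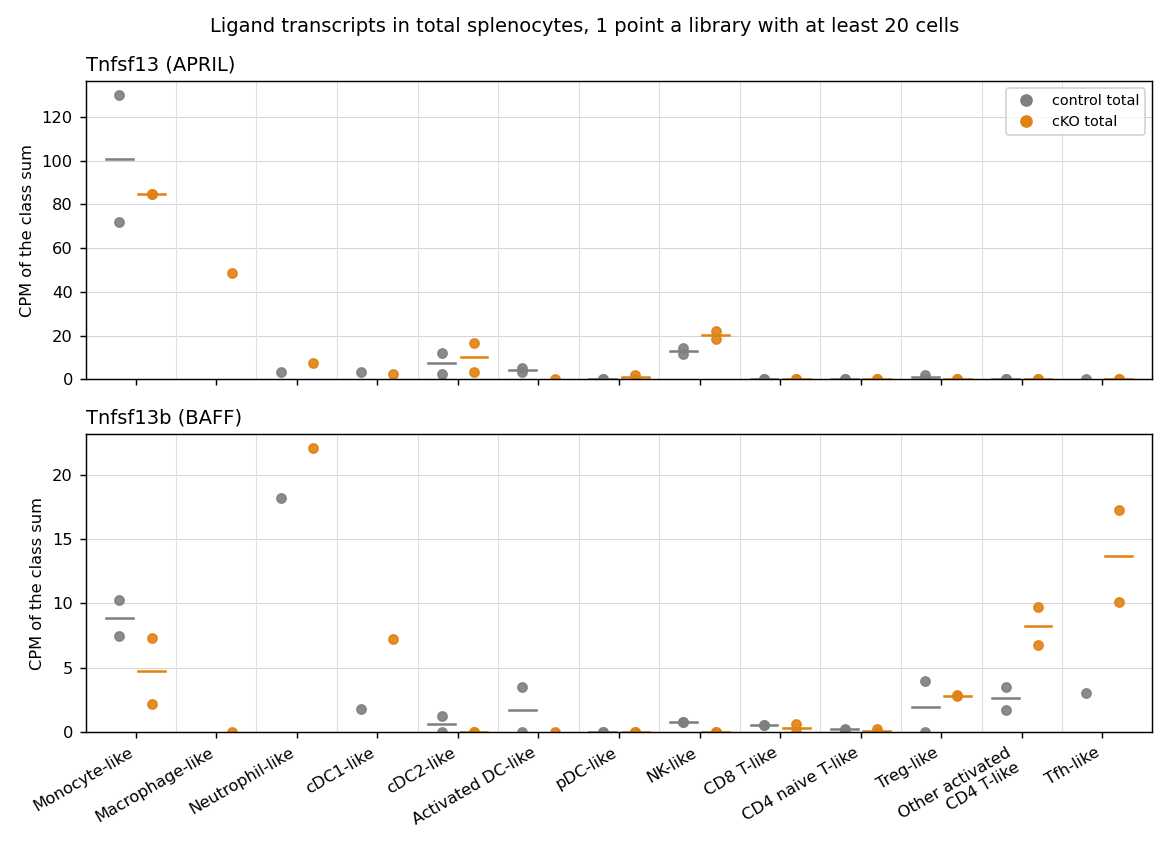
Level of Tnfsf13 (top) and Tnfsf13b (bottom) in CPM of the class sum in total splenocytes, 1 point for each library with at least 20 cells and a bar at the mean where a group has 2. Tnfsf13 peaks in monocyte-like cells, at 71.9 to 130 CPM, and Tnfsf13b reaches 10.1 and 17.2 CPM in Tfh-like cells of cKO mice.

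In CD4 T-like cells of total spleen Tnfsf13b read 4.33 and 8.08 CPM in cKO libraries (40 and 117 UMIs in 1446 and 1975 cells) and 1.25 and 0.393 CPM in control libraries (12 and 3 UMIs in 1349 and 1304 cells). The groups did not overlap. Because the control library with 3 UMIs fell short of the filter on low counts, Tnfsf13b entered the test through the cKO libraries, where it was high. The log2 fold change of 2.75 ± 0.57 missed the threshold (adjusted p = 0.051, edgeR) in cells where 3.46% of all genes were called. With the block it was 2.67 ± 0.46 and called (adjusted p = 4.7e-04), where 28.4% of all genes were called, and DESeq2 called it as well (2.78, adjusted p = 0.0023). Over T- and NK-like cells together it was 2.46 ± 0.52 (adjusted p = 0.11, with 1.29% of all genes called), or 2.37 ± 0.47 with the block (adjusted p = 0.025, with 13.6%). Of 7 ligand tests in myeloid, dendritic and T cell classes 0 were called without the block (2 with an unadjusted p under 0.05) and 2 with it, the 2 overlapping sums just given.

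Most of these UMIs lay in Tfh-like cells, the CD4 T cells that help B cells. Of 157 Tnfsf13b UMIs in CD4 T-like cells of cKO total libraries 124 were in Tfh-like cells, and of 15 in control total libraries 1 was. Tfh-like cells were 362 and 670 in cKO total libraries (25.03% and 33.9% of CD4 T-like cells) and 40 and 17 in control total libraries (2.97% and 1.30%). Per UMI of their own class, Tfh-like cells read 10.1 and 17.2 CPM in cKO, and 3.03 CPM (1 UMI) and 0 CPM in control, where 3 UMIs in the 40 cells would be 9.09 CPM. A test within Tfh-like cells, with the minimum lowered from 20 to 10 cells after the values were seen, gave a fold change of 2.73 ± 1.15 that was not called (adjusted p = 0.69). Tnfsf13b passed the filter on low counts in that test through the cKO libraries alone, so the test is not independent of where the gene was high. Other activated CD4 T-like cells read 9.75 and 6.81 CPM in cKO (8 UMIs in each library) and 3.53 and 1.73 CPM in control (4 and 2 UMIs). Treg-like cells read 2.78 and 2.92 CPM in cKO against 3.99 and 0 CPM in control, and naive CD4 T-like cells at most 0.289 CPM in any of the 4 libraries. Without the Tfh-like cells, a choice made after the result was seen, the fold change over CD4 T-like cells was 1.32 ± 0.58 (adjusted p = 0.60), or 1.37 ± 0.54 with the block (adjusted p = 0.075).

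Transcripts of other cells were low in CD4 T-like cells, and their ranges overlapped between the genotypes. A cluster of 1102 cells found among the T cells but led by Ebf1, Bank1 and Cd79a had been left out of all classes. Lyz2 of monocytes read 3.57 to 5.11 CPM in cKO and 2.70 to 12.6 CPM in control total libraries, S100a8 of neutrophils 3.57 to 4.56 CPM and 0.656 to 7.16 CPM, and Cd79a of B cells 20.4 to 27.3 CPM and 25.8 to 35.9 CPM. The T cell transcript Cd3e stood at 416 to 426 CPM and 377 to 404 CPM. Tfh-like cells of cKO mice held Bcl6 at 218 to 267 CPM, Cxcr5 at 91.3 to 109 CPM and Il21 at 31.7 to 45.3 CPM, with Lyz2 at 3.48 to 4.46 CPM.

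TACI transcripts also stood higher in CD4 T-like cells of cKO spleen. Tnfrsf13b read 31.2 and 43.6 CPM in cKO total against 23.8 and 22.8 CPM in control total libraries, without overlap. The log2 fold change was 0.57 ± 0.24 (adjusted p = 0.32, edgeR, with 3.46% of all genes called). With the block it was 0.55 ± 0.13 (adjusted p = 0.0031, edgeR, with 28.4% of all genes called). Without the block it ran from 0.30 to 0.78 with 1 library left out. Tfh-like cells of cKO read 39.8 and 58.7 CPM, and the CD4 T-like cells outside them 28.0 and 33.6 CPM against 24.3 and 21.9 CPM in control (0.37 ± 0.21, adjusted p = 0.82). Of these cells outside Tfh, 904 of 2389 were Treg-like in cKO total and 351 of 2596 in control total libraries. Within Treg-like cells the fold change of Tnfrsf13b ran from -0.067 to 0.086 with 1 library left out. That class was filled from different clusters in the genotypes. A Neb-led cluster held 299 and 510 cells in cKO total and 37 and 46 in control total libraries. An Il2ra-led cluster held 55 and 40 cells in cKO total and 142 and 126 in control total libraries. The naive CD4 and the CD8 T-like classes were also filled from different clusters by genotype. The part of the makeup of CD4 T-like cells in these values was not tested.

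B-like cells held little Tnfsf13b. Over all B-like cells it read 0.484 and 0.304 CPM in cKO YFP+ and 1.38 and 0.842 CPM in control YFP+ libraries, without overlap (-1.43 ± 0.42, adjusted p = 0.098, or an adjusted p of 0.021 in the blocked fit). The cluster whose best match was T-bet+ B cells held 71 of the control YFP+ UMIs, at 2.32 to 3.36 CPM, and it numbered 3001 control YFP+ cells but 150 cKO YFP+ cells. The part of that cluster in the difference was not tested.

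The other genes of the pathway were read from a list of 28: the receptor BCMA, genes that process or shed ligands and receptors, adaptors and ubiquitin ligases, kinases, NF-kB subunits and survival genes. In YFP+ pre-GC activated B-like cells 27 were tested, 3 were called higher in cKO and 2 lower, and their median log2 fold change was 0.05 beside 0.00 over all genes (4.14% of all genes were called higher and 4.58% lower). Nfkb2, the precursor of the alternative NF-kB subunit, read 94.9 and 92.2 CPM in cKO YFP+ against 43.0 and 39.1 CPM in control YFP+ libraries (1.24 ± 0.19, adjusted p = 0.0089). Bcl2l1, which encodes the survival protein Bcl-xL, read 35.9 and 29.2 CPM against 16.9 and 9.89 CPM (1.35 ± 0.24, adjusted p = 0.016). Birc2, a ubiquitin ligase of the TRAF complex, rose by 0.95 ± 0.20 (adjusted p = 0.027). Bcl2l11, which encodes the death-promoting protein Bim, read 32.1 and 16.6 CPM against 93.0 and 68.2 CPM and fell (-1.68 ± 0.29, adjusted p = 0.015), and the adaptor Traf5 fell by 0.85 on the log2 scale (adjusted p = 0.036). In each of these genes both cKO YFP+ libraries lay on the same side of both control YFP+ libraries. The test did not call Traf3 (-0.20 ± 0.24) or Map3k14, which encodes the kinase NIK (0.12 ± 0.27), in this class. With the block Traf3 was called lower in 3 other YFP+ B classes (-0.89 to -0.43), which were follicular, B1-like and interferon-response B-like cells, where 15.2%, 14.4% and 2.73% of all genes were called. In the same fits Nfkb2 was called lower in follicular B-like cells (-0.44) and higher in plasma cell-like cells (0.90, where 2.79% of all genes were called). With the block the survival gene Bcl2 was called lower in 3 YFP+ B classes (-1.20 to -0.75), in fits that called up to 29.6% of all genes. With classes defined in control libraries alone the smallest adjusted p of the 5 genes called in this class was 0.25. Without the first or the second cKO YFP+ library the adjusted p was 0.148 or 0.076 for Birc2 and 0.062 or 0.42 for Traf5. With the block 7 of the 27 were called higher and 4 lower, where 29.6% of all genes were called.

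The list was also read in the 2 clusters of that class. In the Fabp5-led cluster 6 genes were called higher and 3 lower of 27, with Bcl2l1 at 2.59 ± 0.22, Nfkb2 at 1.56 ± 0.19, Bcl2l11 at -2.02 ± 0.23 and Traf5 at -1.46 ± 0.18, in a cluster where 22.7% of all genes were called. In the Mreg-led cluster Bcl2l11 alone of 26 was called (-1.39 ± 0.34, adjusted p = 0.046), beside 1.93% of all genes. With the block, 2 were called higher and 3 lower there, where 13% of all genes were called.

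**Figure D5:**
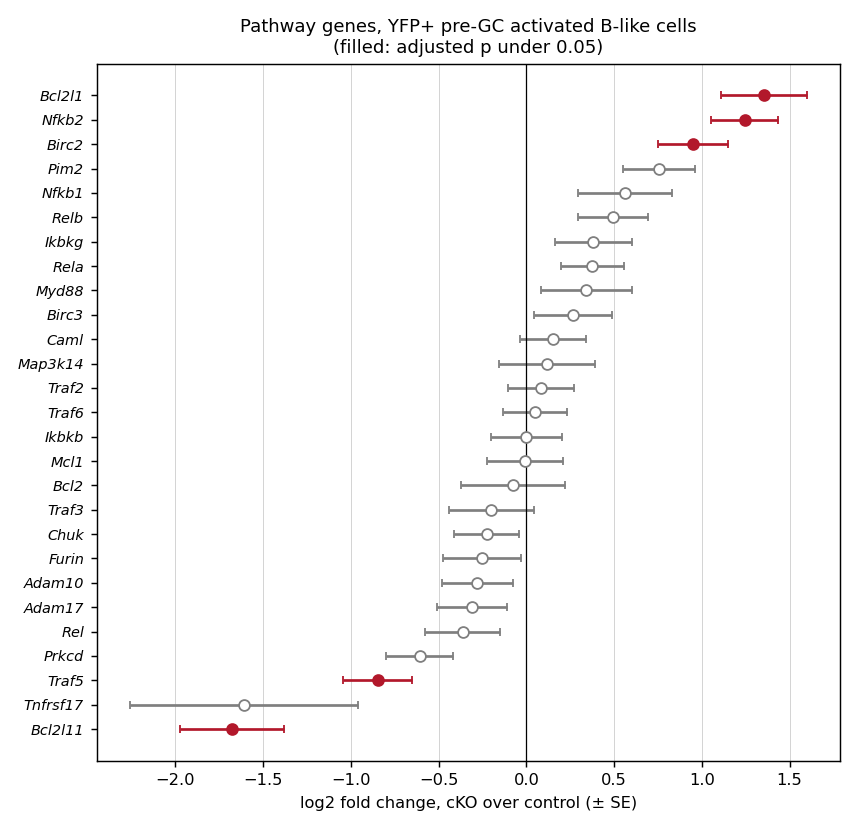
Log2 fold change of cKO over control, with its SE, for the 27 tested genes of the pathway list in YFP+ pre-GC activated B-like cells. The filled points are Bcl2l1, Nfkb2 and Birc2 above 0 and Traf5 and Bcl2l11 below 0.

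Over all YFP+ B-like cells, a sum that leaves out plasma cell-like cells, 1 of 28 genes was called higher and 1 lower, a share near the 6.17% of all genes called. Bcl2l1 rose by 1.26 ± 0.22 (adjusted p = 0.019, or 0.062 without the first cKO YFP+ library). Tnfrsf17, the plasma cell receptor BCMA, read 0.206 and 0.162 CPM in cKO YFP+ against 1.36 and 1.15 CPM in control YFP+ libraries (-2.71 ± 0.41, adjusted p = 0.013), and it was also higher in YFP+ than in total B-like cells of control mice (2.75 ± 0.61, adjusted p = 0.041, or 0.074 without the second control total library). Plasma cell-like cells themselves were 8.99% to 9.68% of control YFP+ cells, 0.946% to 1.08% of cKO YFP+ cells and 0.363% to 0.596% of control total cells. They held Tnfrsf17 at 97.8 and 82.4 CPM in cKO YFP+ against 115 and 119.8 CPM in control YFP+ libraries (-0.33 ± 0.27, adjusted p = 0.96). The part of their number in the low reading of the other B cells was not tested. In B classes of total spleen the smallest adjusted p of a list gene without the block was 0.080, for Relb in germinal centre B-like cells (-0.996 ± 0.26), where 1.62% of all genes were called. With the block Bcl2 was called lower in cKO in 7 of 8 named B classes of total spleen, by log2 fold changes of -1.08 to -0.44, the exception being marginal zone B-like cells. The block called 18.1% of all genes in follicular, 5.53% in pre-GC activated, 4.74% in germinal centre, 4.41% in B1-like, 4.21% in interferon-response, 2.57% in plasma cell-like, 2.03% in marginal zone and 2.02% in transitional B-like cells, and without it Bcl2 was called in 0 of the 8 (edgeR, 4 with an unadjusted p under 0.05). In CD4 T-like cells of total spleen 1 of 26 genes was called, Bcl2l1 (1.23 ± 0.20, adjusted p = 0.023), at 33.7 and 32.8 CPM in cKO against 13.6 and 12.5 CPM in control, and with the block 6 were called higher and 4 lower (3.46% and 28.4% of all genes were called without and with the block).

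The genes most like each member were found by Pearson correlation of log2 levels over the means of 17 classes of control total spleen, among 9526 genes, as a description of classes that share 2 libraries. For Tnfrsf13c they were the antigen receptor signalling genes Cd79a (r = 0.988) and Cd79b (0.980), then Gm43388 (0.977), the B lineage factor Pax5 (0.971) and Scd1 (0.971). For Tnfrsf13b they were 3300005D01Rik (0.8996), Arhgap24 (0.8996), Ly6d (0.8994), Serp1 (0.898) and Fcrla (0.887). For Tnfsf13 the Fc receptor gene Fcgr3 came first (0.965), then Ctbp2 (0.953), Metrnl (0.951), Camk1 (0.934) and Fam129b (0.931). For Tnfsf13b, read at 8.87 CPM at most, they were Aup1 (0.879), Ino80dos (0.847), Slc16a3 (0.816), Sec14l1 (0.813) and F13a1 (0.803).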

How the data were processed

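Per the labels, 3′ single-cell libraries were made from sorted total live cells or YFP+ cells of spleen (the protocol also names lymph nodes). The authors deposited raw UMI counts per gene and cell, and the submitters' processing notes name GRCm38 and mm10. The aligner and counter were not given in the sources used here. According to the methods of the study, cells were filtered, integrated and merged over replicates afterwards, steps that the deposited counts precede.

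Barcodes with over 200 UMIs, over 100 genes and at most 10% mitochondrial UMIs were kept. Cells were clustered with scanpy 1.11.5 and igraph 0.11.9 (2000 variable genes centred within batch, 30 components, 20 neighbours, resolution 1), without the members and the pathway list. Clusters were named from marker lists by the highest mean score, where it passed 0.5, a limit set after clusters were seen, with at least 3 markers detected. No cells were removed by doublet score, and an alternative removed the highest 8% of doublet scores. Clusters that best matched the list of another lineage were left out of all classes. Counts were summed per library and class (at least 20 cells in each library) and tested with edgeR 4.0.16 in R 4.3.3 (TMM, filterByExpr, robust quasi-likelihood test, Benjamini-Hochberg over all genes of the class, threshold 0.05). A ± is an SE in fold changes. DESeq2 1.42.0 was an alternative, and the scripts were tested on simulated data. The batch number in the titles served as the block. Libraries of the same batch deviated together from their group means, with correlations of 0.748 to 0.919 over 6 values in all B-like cells and 0.377 to 0.848 in T- and NK-like cells. The blocked value is therefore given where it changes a call of the 4 members. For the pathway list, calls made only with the block are given in part. Named genes were the 4 members, the genes of the pathway list past the threshold (at most 8, by size) or the 2 of smallest p, and the 5 genes most like each member. Members and lists were chosen with earlier results of these data known. Intervals of cell shares and floors (3 counts) cover counting error only. Intervals of fold changes come from the SE of the edgeR fit, which includes the spread between libraries.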

Additional observations from a re-analysis of the deposited data

Results flagged for a closer look

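The genotype effect on Tnfrsf13c differed between YFP+ and total cells in 2 tests of the difference itself, of 16 run over both receptors, each with batch and genotype as a block. In pre-GC activated B-like cells the log2 difference of the effects was -0.91 ± 0.12 (adjusted p = 5.6e-05, edgeR, in a test that called 16.2% of all genes), with both cKO YFP+ libraries (78.3 and 74.3 CPM) below all other libraries of the class. Over all B-like cells it was -0.57 ± 0.12 (adjusted p = 0.014, in a test that called 15.5% of all genes), with both cKO YFP+ libraries (115 and 120 CPM) below all others. The makeup of that sum differed between the genotypes in YFP+ cells, as given above, and its part in the value was not tested. Without the block the differences were -0.92 (adjusted p = 0.33) and -0.60 (adjusted p = 0.75), and with 1 library left out they ran from -1.12 to -0.69 and from -0.87 to -0.26, called in 0 of these fits. In the Mreg-led cluster of the pre-GC activated B-like class the difference was -0.045, or -0.049 with the block, and over the class as defined in control libraries it was -0.34.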

How the results depend on the processing

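Of the fold changes that answer a comparison, 127 kept their side of the threshold under alternatives other than leaving out a library, 9 passed it only in the alternative and 3 no longer passed it. With 1 library left out 48, 5 and 2 did so, and 1 turned its sign beyond its SE. Of the 175 that kept their side, 9 had the opposite sign within their SE. The causes were not tested. Among the alternatives, 2 left large B clusters out of all B classes. With at least 1000 UMIs and at most 5% mitochondrial UMIs, a B cluster of 11394 mostly control cells best matched the T lineage list. It was therefore left out of all B classes. With genes centred over all libraries, B clusters of 8028 and 3623 cells were left out in the same way. Kept or changed values of B classes in these 2 settings are no check on the same cells. For Tnfrsf13c, with the block, the YFP+ fold change over all B-like cells was -0.75 and the differences between sorts were -0.57 over all B-like cells, -0.91 in pre-GC activated B-like cells and -1.45 in their Fabp5-led cluster. Its pre-GC fold change in YFP+ cells was -0.58 with classes defined in control libraries and -0.36 in the Mreg-led cluster, also with the block. Tnfsf13b in CD4 T-like cells was called at 2.78 by DESeq2, 2.81 without a filter, 2.67 with the block, 2.74 with all 8 libraries and 2.75 without doublets. Counts of called receptor tests were 3 of 16 in YFP+ cells, 2 of 18 in total cells and 2 of 16 between sorts with the block, and 1 of 18 between sorts with classes defined in control libraries. Ligand calls were 2 of 7 by DESeq2 or with the block, 2 of 22 without a filter, 1 of 3 with all 8 libraries and 1 of 7 without doublets, and in CD4 T-like cells the same fits called 5.76%, 28.4%, 6.12%, 5.82% and 3.81% of all genes.

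With 1 library left out, the fold change of Tnfrsf13c in YFP+ cells ran from -1.04 to -0.45 over all B-like cells and from -1.33 to -0.88 in pre-GC activated B-like cells, Tnfsf13b in CD4 T-like cells from 2.22 to 3.84, and Tnfsf13 in conventional dendritic-like cells from -1.24 to 1.10. In these fits 1 group holds 1 library, so the spread comes from the other libraries alone. A call in them is therefore no check on the full fit. Counts of calls ran from 0 to 2 for receptors in YFP+ cells and from 1 to 2 for ligands, of 7 to 9 tests (3.66% to 9.09% of all genes in CD4 T-like cells). Sign changes were Tnfsf13b in follicular B-like cells of total spleen (-1.08 to 0.79), Tnfsf13b in YFP+ pre-GC activated B-like cells (-1.78 to 6.46) and Tnfrsf13b in naive CD4 T-like cells (-0.065 to 0.61). The value of 6.46 came from the fit without the first control YFP+ library. In control YFP+ libraries the Fabp5-led cluster held 8 Tnfsf13b UMIs, all in 1 library, and the Mreg-led cluster 0. The value of -0.065 lay within its SE of 0.41. With genes centred over all libraries, a setting that left out the B clusters given above, Tnfrsf13b turned to 0.32 in YFP+ follicular B-like cells. It also turned to 0.28 (0.27 with the block) in the Mreg-led cluster of YFP+ cells, and between sorts to 0.19 (0.18 with the block) there. With classes defined in control libraries it turned to 0.015 in YFP+ germinal centre B-like cells, to -0.40 for YFP+ against total control cells, and between sorts to 0.66 in germinal centre and 0.12 in pre-GC activated B-like cells. Tnfrsf13c in B1-like cells by sort was 0.14 at resolution 0.5, where the B1-like class was larger. Of these turned values, 0.28, 0.19, 0.015, 0.12 and 0.14 also lay within their SE.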
